A study of Homo sapiens with 12 samples.

Results

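The 27 genes described here make, take up, move and export cholesterol. They were chosen by symbol from a fixed list and matched by gene identifier among the 58503 genes present in both deposited tables, and all 27 were found. By role they are 3 regulators (SREBF2, SCAP and INSIG1), MYLIP, which controls lipoprotein receptors, 19 synthesis enzymes, 2 intracellular sterol carriers (STARD4 and NPC1) and 2 exporters (ABCA1 and ABCG1). The enzymes divide into 8 of the mevalonate and isoprenoid steps, 3 of the squalene and lanosterol steps and 8 of the steps after lanosterol.

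The libraries are bulk RNA-seq of LNCaP and PC3, human prostate cancer cell lines, both labelled wild type. LNCaP responds to androgen and PC3 grows without it. In each line, 3 libraries came from cells given erastin at 5 µmol/L and 3 from cells given DMSO, its solvent, which makes 12 libraries in 4 groups. Erastin blocks cystine import through system xc- and is used to bring on ferroptosis, a form of cell death driven by lipid peroxidation. The exposure time is not given in the sources used here, and no label ties the libraries of a group to different cultures. The p-values therefore reflect the spread among these libraries, which may be technical.

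Cholesterol is built from acetyl-CoA through mevalonate, farnesyl pyrophosphate, squalene and lanosterol. When sterols in the endoplasmic reticulum are low, SCAP escorts SREBP2, the product of SREBF2, to the Golgi, where it is cut to release a transcription factor for most of the synthesis enzymes. When sterols are high, INSIG1 holds SCAP back, and oxysterols activate the liver X receptors (LXR), whose known targets include MYLIP, ABCA1 and ABCG1. In prostate cancer the pathway is studied because cholesterol is the precursor of androgens. It is studied in ferroptosis because mevalonate also feeds coenzyme Q10, and because the last intermediate before cholesterol, 7-dehydrocholesterol, reacts readily with lipid radicals.

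Values are FPKM, fragments per unit of gene length and of library size, as the authors deposited them. Erastin was compared with DMSO within each line by limma on log2(FPKM + 1), and every log2 fold change below is erastin minus DMSO in those units, in which changes of low genes come out too small. Adjusted p-values are two-sided and Benjamini-Hochberg adjusted over all genes of a line with 1 FPKM or more in 3 or more of its 6 libraries, and rose or fell means an adjusted p under 0.05. The reads recovered from the tables numbered 13709558 to 17668554 per library. The library size implied by the FPKM was not the total of these reads in every library. It was 1.00 to 1.12 times that total in erastin and 0.871 to 1.07 times in DMSO LNCaP libraries. For PC3 it was 0.985 to 1.02 times the total under erastin and 0.907 to 0.937 times under DMSO. Gene lengths differ between the tables of the lines (10054 bases for SC5D in the PC3 table, against 5566 in the LNCaP table), so levels were not compared between lines.

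The labels were checked against genes that mark each line. Of 10 LNCaP marker genes, 9 reached a mean of 1 FPKM in erastin LNCaP libraries and 10 in DMSO LNCaP libraries, with sums of 507 to 520 FPKM under erastin and 1250 to 1326 FPKM under DMSO. All 10 PC3 marker genes reached it in both PC3 groups, with sums of 193 to 200 FPKM under erastin and 1090 to 1156 FPKM under DMSO. CTNNA1, the alpha-catenin gene that is known to be homozygously deleted in PC-3, had 6.23 ± 0.347 FPKM in erastin libraries labelled PC3 and 52.8 ± 3.36 FPKM in DMSO libraries labelled PC3 (SD, n = 3 each). In these libraries 20 protein-coding genes were listed at 0 in every DMSO library and at 1 FPKM or more in every erastin library, against 0 such genes in LNCaP. CTNNA1 goes against the PC3 label in both groups, and to a different extent in each. A difference in the cells behind the 2 groups and an effect of erastin cannot be told apart in the libraries labelled PC3, and PC3 below stands for those libraries. Rose and fell, for them, say only which group was higher or lower. DMSO replicate 1 of PC3 stood apart from the other DMSO libraries: it was nearer to the erastin mean than to the mean of DMSO replicates 2 and 3 for 13 of the 27 genes, and for 31.8% of all PC3 genes tested. Markers of other cell types were low in LNCaP, with sums under erastin and under DMSO of at most 3.06 FPKM for any of 4 lists. In PC3 the 4 endothelial markers summed to 4.54 to 4.94 FPKM under erastin and 27.1 to 32.2 FPKM under DMSO. KDR alone averaged 4.17 FPKM under erastin and 28.9 FPKM under DMSO, and each other endothelial marker at most 1.06 FPKM. The 4 hepatocyte and macrophage markers summed to 8.76 to 9.93 FPKM under erastin and 0.158 to 0.347 FPKM under DMSO. Of these, CSF1R averaged 9.02 FPKM under erastin, and each other marker at most 0.322 FPKM in either group. The 5 leukocyte markers summed to 2.59 to 3.80 FPKM under erastin and 0.531 to 1.23 FPKM under DMSO. Stromal markers in PC3 summed to 4.73 to 4.90 FPKM under erastin and 2.75 to 5.20 FPKM under DMSO. The share of mitochondrial rRNA was 1.95 to 2.18% in erastin and 0.628 to 0.944% in DMSO libraries labelled PC3, and 2.73 to 3.54% in erastin and 1.67 to 2.46% in DMSO LNCaP libraries. Genes above 0 numbered 30239 to 31311 in erastin and 25679 to 26144 in DMSO libraries labelled PC3. The part of these differences in the results was not tested.

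Promoters are shown for 5 genes whose levels the results turn on. RefSeq (GRCh38.p14) gave promoters for 23 of the 27 genes, 30 promoters in all, and ACAT2, FDFT1, SQLE and ABCG1 were not matched. Each sequence is the 250 bases before the annotated start, written 5′ to 3′ in lower case. Capitals mark the SREBP consensus TCACNCCAC, the E-box CACGTG and the CCAAT box (CCAAT, read as ATTGG on the other strand).
SREBF2, chr22:41832855-41833104, plus strand: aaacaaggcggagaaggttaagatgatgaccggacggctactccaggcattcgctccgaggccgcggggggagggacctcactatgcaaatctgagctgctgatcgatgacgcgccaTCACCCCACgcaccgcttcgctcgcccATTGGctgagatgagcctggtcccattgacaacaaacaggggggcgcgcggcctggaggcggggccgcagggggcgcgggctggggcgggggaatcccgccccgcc
INSIG1, chr7:155297628-155297877, plus strand: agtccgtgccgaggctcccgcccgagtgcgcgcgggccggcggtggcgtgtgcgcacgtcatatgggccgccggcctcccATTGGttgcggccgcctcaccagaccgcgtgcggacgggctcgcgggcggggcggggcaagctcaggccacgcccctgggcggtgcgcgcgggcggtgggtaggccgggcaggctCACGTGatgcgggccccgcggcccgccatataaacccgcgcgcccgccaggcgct
FDPS, chr1:155308616-155308865, plus strand: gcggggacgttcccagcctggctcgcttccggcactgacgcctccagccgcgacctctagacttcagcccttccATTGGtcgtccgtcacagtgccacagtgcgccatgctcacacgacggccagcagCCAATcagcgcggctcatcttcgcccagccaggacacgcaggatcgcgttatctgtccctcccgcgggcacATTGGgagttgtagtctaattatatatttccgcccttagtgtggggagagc
EBP, chrX:48521558-48521807, plus strand: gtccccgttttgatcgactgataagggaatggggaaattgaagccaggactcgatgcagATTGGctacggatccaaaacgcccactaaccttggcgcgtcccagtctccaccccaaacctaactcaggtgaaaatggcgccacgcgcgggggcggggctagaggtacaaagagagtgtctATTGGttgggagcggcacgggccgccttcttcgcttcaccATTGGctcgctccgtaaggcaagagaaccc
MYLIP, chr6:16128836-16129085, plus strand: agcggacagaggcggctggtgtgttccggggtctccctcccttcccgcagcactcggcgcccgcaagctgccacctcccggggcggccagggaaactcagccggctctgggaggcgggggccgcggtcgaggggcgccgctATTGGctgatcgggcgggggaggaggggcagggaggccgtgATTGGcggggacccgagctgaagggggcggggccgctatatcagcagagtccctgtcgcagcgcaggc
The motifs were searched on both strands over 300 bases, from 250 before to 50 after the start, in these genes and in all 35116 RefSeq promoters, and none of the 3 motifs contains another. The SREBP consensus was found in 1 of the 30 promoters, that of SREBF2, and in 1.13% of all promoters. CCAAT was found in 20 of the 30 promoters (66.7%), of 18 genes, and in 34.6% of all promoters. CACGTG was found in 6 of the 30 promoters, of ABCA1, INSIG1, LSS, SC5D and SCAP, and in 7.26% of all promoters. The 2 SC5D promoters overlap and share 1 CACGTG and 1 CCAAT, each counted in both. The printed windows of FDPS and EBP each hold CCAAT 3 times and that of MYLIP holds it 2 times. These matches describe letters in a window and not bound sites.

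In PC3, 16 of the 26 genes tested were lower under erastin, 3 were higher (MYLIP, SC5D and ABCG1) and 7 did not pass the test. Of all 15371 PC3 genes tested, 32.4% were lower, 34.0% were higher and 66.4% passed in either direction. The median log2 fold change was -0.75 over the 26 genes and 0.00 over all genes. In LNCaP, 3 of the 26 genes tested were higher (SC5D, NPC1 and ABCG1), 5 were lower (SREBF2, INSIG1, ACAT2, FDPS and STARD4) and 18 did not pass, when 13.8% of all 13683 genes tested were higher, 17.7% were lower and 31.5% passed in either direction. The LNCaP median was -0.02 over the 26 genes and -0.02 over all genes. With the replicate number as a block, the LNCaP counts were 6 higher and 8 lower of 26, against 23.6% and 26.7% of all genes, and HMGCS1, IDI1, TM7SF2, PMVK, EBP and DHCR7 passed in addition. Of the 26 tested genes, 12 passed in PC3 with an absolute log2 fold change of at least 1, as did 36.4% of all genes, and 0 did so in LNCaP, against 9.18% of all genes. The erastin and DMSO libraries did not overlap for 21 of the 27 genes in PC3, 3 of them higher and 18 lower, when 36.7% of all genes tested were higher without overlap, 35.2% lower and 71.9% either way. In LNCaP they did not overlap for 15 of the 27, 7 higher and 8 lower, against 22.2% higher, 24.3% lower and 46.5% either way. ABCA1 was the gene below the filter in both lines. With no filter on low values the LNCaP calls of INSIG1 (limma adjusted p = 0.0639), ACAT2 (0.114), STARD4 (0.0868), NPC1 (0.0993) and ABCG1 (0.0503) were lost, and with 1 library left out 0 to 3 LNCaP genes were higher and 1 to 5 lower. In bulk RNA, fewer cells that express a gene and less of its RNA per cell cannot be told apart.

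**Figure D1:**
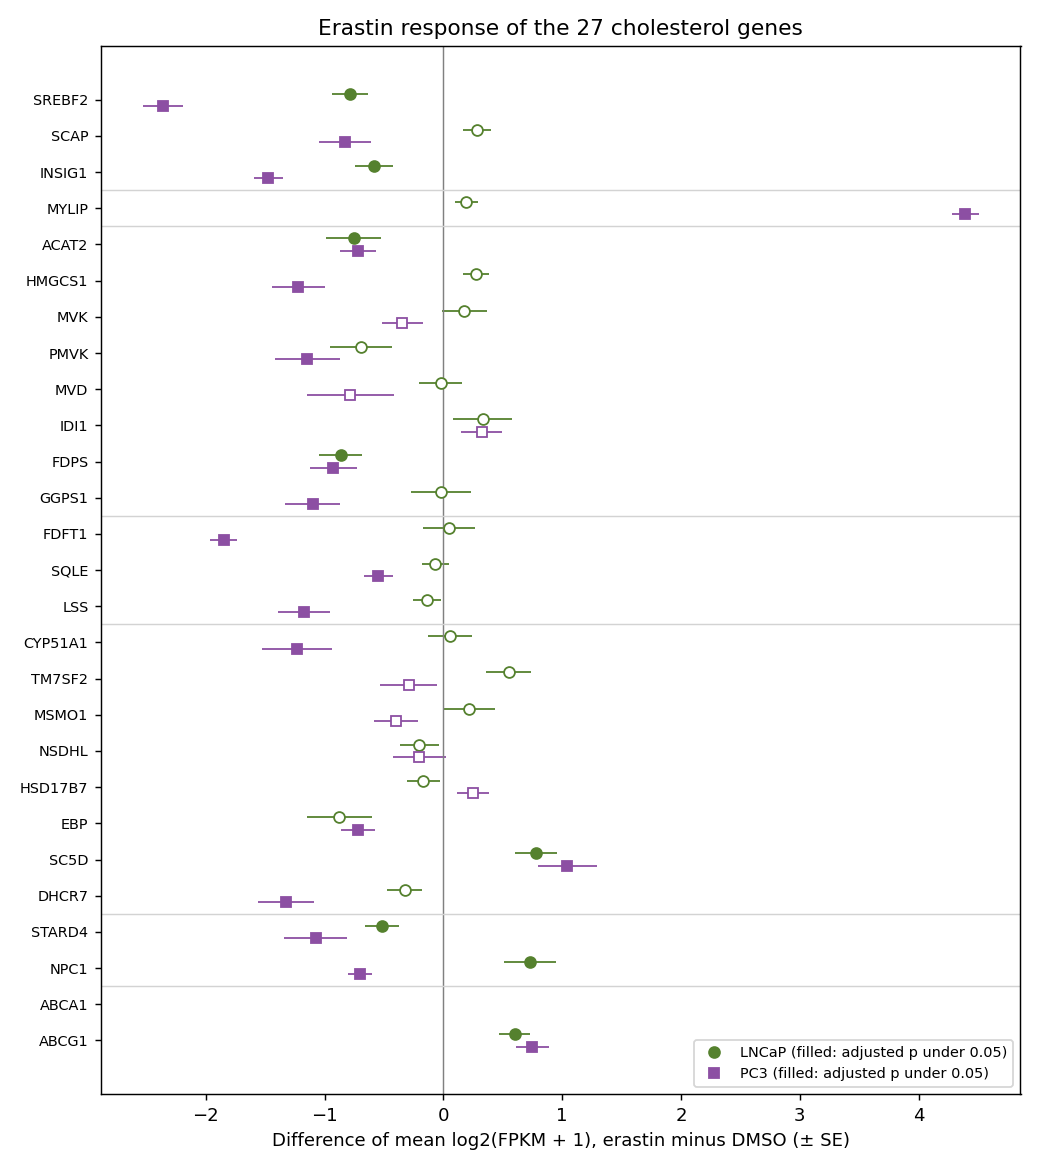
Log2 fold changes, erastin minus DMSO, of the genes tested in LNCaP and in PC3, in rows by role; bars are standard errors and filled points have an adjusted p under 0.05. Most PC3 points lie left of 0, MYLIP lies far right at 4.39, and the LNCaP points lie on both sides of 0.

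SREBF2, which encodes the transcription factor SREBP2, was lower under erastin in both lines. In PC3 it had 6.98, 7.22 and 6.98 FPKM in the erastin libraries, against 31.2, 46.1 and 45.7 FPKM in the DMSO libraries. The groups lay far apart, with a log2 fold change of -2.36 ± 0.17 (SE, limma adjusted p = 4.92e-05). In order of level among the 27 genes, SREBF2 was the 21st in PC3 under erastin and the 5th under DMSO. In LNCaP it had 31.8, 31.8 and 25.4 FPKM under erastin, against 52.5, 56.9 and 45.9 FPKM under DMSO. These groups did not overlap either, and the log2 fold change was -0.78 ± 0.15 (limma adjusted p = 0.00938). SREBF2 was the only one of the 8 genes past the test in LNCaP that kept its call when each of the 6 libraries was left out in turn, but its limma adjusted p was 0.0765 after quantile normalization and 0.0771 after scaling to protein-coding genes.

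INSIG1, the retention protein and itself a target of SREBP2, was also lower under erastin in both lines. It had 30.4, 28.0 and 30.6 FPKM in erastin libraries labelled PC3, against 94.6, 81.5 and 77.0 FPKM in DMSO libraries labelled PC3. Every erastin library was under the lowest DMSO library, and the log2 fold change was -1.47 ± 0.12 (limma adjusted p = 7.81e-05). INSIG1 was the most abundant of the 27 genes in DMSO libraries labelled PC3. In LNCaP it had 31.4, 29.7 and 35.3 FPKM under erastin, against 41.0, 48.3 and 57.9 FPKM under DMSO, with a log2 fold change of -0.59 ± 0.16 (limma adjusted p = 0.0338). This LNCaP call was lost in 5 of the 6 fits that left out 1 library. SCAP, the escort of SREBP2, was lower under erastin in PC3, with 10.4, 9.08 and 8.28 FPKM under erastin against 11.9, 20.5 and 20.5 FPKM under DMSO. DMSO replicate 1 of PC3 was close to the erastin libraries here. The log2 fold change of SCAP was -0.83 ± 0.22 in PC3 (limma adjusted p = 0.0141), and the call was lost without DMSO replicate 2 (adjusted p = 0.0519) or without erastin replicate 3 (adjusted p = 0.0558). In LNCaP, SCAP had 34.4, 33.8 and 33.2 FPKM under erastin against 25.0, 29.1 and 28.9 FPKM under DMSO, and did not pass the test (log2 fold change 0.28 ± 0.12, limma adjusted p = 0.111). Summed over the 3 regulators, libraries labelled PC3 held 44.3 to 47.8 FPKM under erastin and 138 to 148 FPKM under DMSO.

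MYLIP encodes a ubiquitin ligase that marks lipoprotein receptors for breakdown, and it showed the largest rise among the 27 genes in PC3. It had 58.1, 59.0 and 55.6 FPKM in erastin libraries labelled PC3, against 2.03, 1.78 and 1.57 FPKM in DMSO libraries labelled PC3. These values rest on 2464, 2599 and 2752 recovered reads under erastin and on 87, 79 and 68 reads under DMSO. The ratio of the means was 32.1, the log2 fold change was 4.39 ± 0.11 (SE, limma adjusted p = 4.50e-06), and by signed fold change MYLIP ranked 13 of the 15371 PC3 genes tested. It was the first of the 27 genes by level in PC3 under erastin and the 25th under DMSO. In LNCaP, MYLIP had 7.15, 6.43 and 6.33 FPKM under erastin, against 5.55, 5.95 and 5.51 FPKM under DMSO. The LNCaP groups did not overlap but lay close together, and the gene did not pass the test (log2 fold change 0.19 ± 0.10, limma adjusted p = 0.175).

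**Figure D2:**
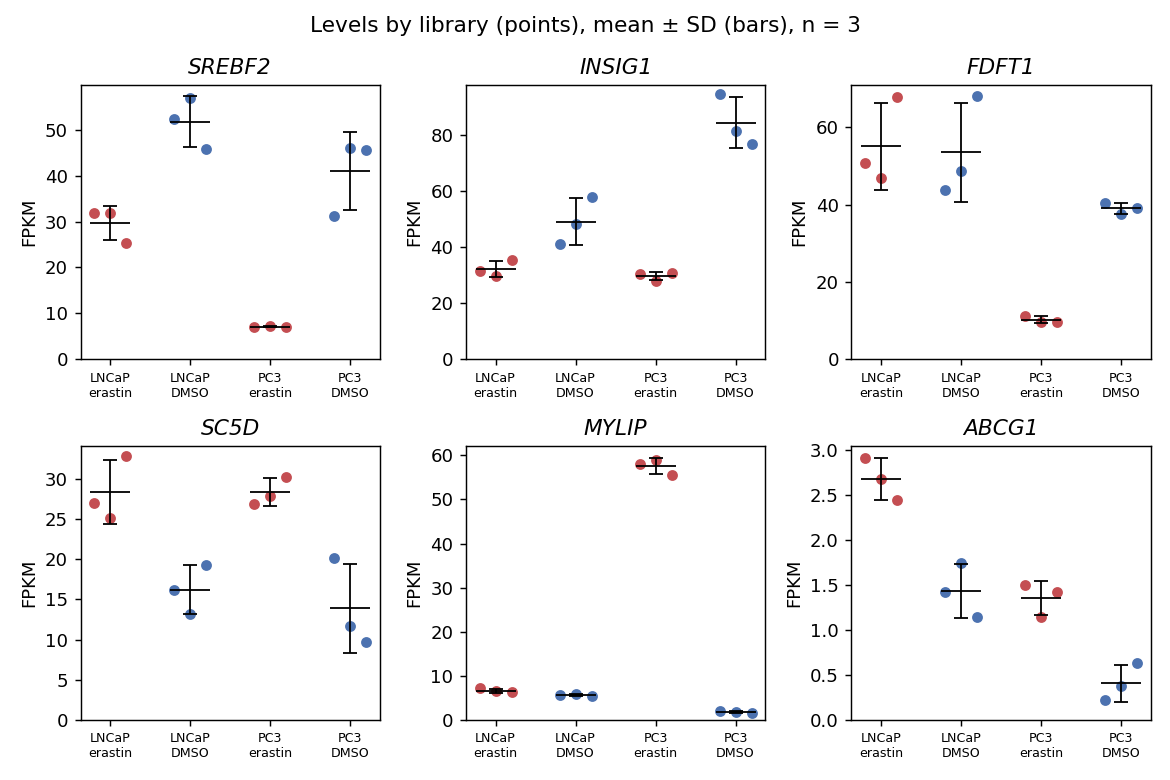
FPKM of SREBF2, INSIG1, FDFT1, SC5D, MYLIP and ABCG1 in each library, with erastin left of DMSO in each line; points are libraries and the bars are the mean and SD of 3 libraries. In PC3 the erastin and DMSO points do not overlap for any of the 6 genes.

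The 8 enzymes of the mevalonate and isoprenoid steps included 5 that fell in PC3 and 2 that fell in LNCaP. Of all genes tested, 32.4% fell in PC3 and 17.7% fell in LNCaP. HMGCS1, which makes HMG-CoA, had 9.83, 10.9 and 11.4 FPKM in erastin libraries labelled PC3, against 37.5, 23.2 and 20.8 FPKM in DMSO libraries labelled PC3. That is less than the lowest DMSO library in every case, with a log2 fold change of -1.22 ± 0.22 (limma adjusted p = 0.00257). In LNCaP the erastin libraries were the higher ones, at 16.8, 15.1 and 17.1 FPKM against 13.8, 12.5 and 13.6 FPKM under DMSO, but HMGCS1 did not pass (log2 fold change 0.28 ± 0.11, limma adjusted p = 0.0964, and 0.0295 with the replicate block). FDPS, which makes farnesyl pyrophosphate and whose promoter is printed above, was lower under erastin in both lines. It had 17.8, 14.2 and 14.0 FPKM in erastin libraries labelled PC3 against 22.6, 32.9 and 35.9 FPKM in DMSO libraries labelled PC3 (log2 fold change -0.93 ± 0.20, limma adjusted p = 0.00521). In LNCaP it had 10.7, 9.67 and 13.5 FPKM under erastin against 17.8, 20.9 and 25.9 FPKM under DMSO (log2 fold change -0.87 ± 0.18, limma adjusted p = 0.0126). No erastin library reached the lowest DMSO library in either line. The LNCaP call of FDPS was lost without erastin replicate 1 (adjusted p = 0.0575) or erastin replicate 2 (adjusted p = 0.0502). The annotation names 8 pseudogenes of FDPS, with which reads may be shared.

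ACAT2, the cytosolic thiolase that starts the pathway, was lower under erastin in both lines. In PC3 it had 15.2, 13.9 and 14.9 FPKM under erastin against 30.5, 22.1 and 22.4 FPKM under DMSO, and the log2 fold change was -0.72 ± 0.15 (limma adjusted p = 0.00507). In LNCaP it averaged 7.19 ± 1.51 FPKM under erastin and 13.1 ± 4.19 FPKM under DMSO (SD, n = 3 each), with a log2 fold change of -0.76 ± 0.23 (limma adjusted p = 0.0470), and this call was lost in 5 of the 6 fits that left out 1 library. ACAT2 overlaps TCP1, a chaperonin subunit gene on the opposite strand that was more abundant than ACAT2, and whether reads were counted by strand is not given in the sources used here. TCP1 had 75.4 ± 3.47 FPKM in erastin libraries labelled PC3 and 50.2 ± 6.81 FPKM in DMSO libraries labelled PC3 (log2 fold change 0.59, limma adjusted p = 0.00639). In LNCaP, TCP1 lay on the same side as ACAT2, at 58.2 ± 11.6 FPKM under erastin and 84.5 ± 23.3 FPKM under DMSO (-0.51, adjusted p = 0.144). PMVK, phosphomevalonate kinase, was lower under erastin in PC3, with 12.6, 8.22 and 8.37 FPKM under erastin against 15.9, 21.9 and 31.7 FPKM under DMSO (log2 fold change -1.15 ± 0.27, limma adjusted p = 0.00836). In LNCaP, PMVK averaged 27.8 ± 6.23 FPKM under erastin and 46.0 ± 13.9 FPKM under DMSO and did not pass (log2 fold change -0.69, limma adjusted p = 0.0865, and 0.0217 with the replicate block). GGPS1, which makes geranylgeranyl pyrophosphate for protein prenylation, was lower under erastin in PC3, with 1.44, 1.39 and 2.01 FPKM under erastin against 6.88, 3.62 and 3.77 FPKM under DMSO. Its PC3 log2 fold change was -1.10 ± 0.23 (limma adjusted p = 0.00504) and its LNCaP value was -0.02 (adjusted p = 0.959).

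MVK, MVD and IDI1, the kinase, decarboxylase and isomerase between mevalonate and farnesyl pyrophosphate, did not pass in either line in the main fit. In LNCaP IDI1 passed with the replicate block (log2 fold change 0.33, limma adjusted p = 0.0244) and after protein-coding scaling (0.48, adjusted p = 0.0490). After protein-coding scaling IDI1 also passed in PC3 (0.54, limma adjusted p = 0.0273). In the main PC3 fit the log2 fold changes were -0.35 for MVK, -0.78 for MVD and 0.32 for IDI1 (limma adjusted p = 0.120, 0.0954 and 0.144). DMSO replicate 1 of PC3 lay apart for MVD, whose erastin libraries had 8.89, 6.88 and 8.40 FPKM and whose DMSO libraries had 7.50, 17.8 and 22.4 FPKM. IDI1 showed the same split in the other direction, with 27.4, 28.3 and 30.0 FPKM under erastin and 29.6, 20.3 and 19.3 FPKM under DMSO. Without that library MVK (log2 fold change -0.51, limma adjusted p = 0.00332) and MVD (-1.22, adjusted p = 0.000210) were lower and IDI1 (0.51, adjusted p = 0.000647) was higher. MVK overlaps MMAB, a cobalamin enzyme gene on the opposite strand. MMAB was lower under erastin in both lines, with 3.63 ± 0.285 FPKM in erastin libraries labelled PC3 against 11.4 ± 2.39 FPKM in DMSO libraries labelled PC3 (log2 fold change -1.40, limma adjusted p = 0.000396), and 8.23 ± 1.60 FPKM in erastin LNCaP libraries against 18.1 ± 4.93 FPKM in DMSO LNCaP libraries (-1.03, adjusted p = 0.0138).

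All 3 enzymes of the squalene and lanosterol steps fell in PC3 and none of them passed in LNCaP. Of all genes tested, 32.4% fell in PC3 and 31.5% passed in either direction in LNCaP. FDFT1, squalene synthase, commits farnesyl pyrophosphate to sterols. It had 11.2, 9.69 and 9.56 FPKM in erastin libraries labelled PC3, against 40.5, 37.7 and 39.1 FPKM in DMSO libraries labelled PC3. The DMSO libraries agreed closely, DMSO replicate 1 included, and the log2 fold change was -1.85 ± 0.11 (limma adjusted p = 2.73e-05). In LNCaP, FDFT1 had 50.6, 46.8 and 67.8 FPKM under erastin against 43.9, 48.7 and 68.1 FPKM under DMSO. Those groups overlapped, with replicate 3 the highest in each, and the log2 fold change was 0.05 with a 95% interval of -0.48 to 0.57. SQLE, squalene epoxidase, was lower under erastin in PC3, with 33.1, 31.9 and 35.8 FPKM under erastin against 55.6, 47.9 and 45.4 FPKM under DMSO (log2 fold change -0.55 ± 0.12, limma adjusted p = 0.00650). LSS, which closes squalene epoxide into lanosterol, was also lower under erastin in PC3, with 10.0, 8.83 and 8.14 FPKM under erastin against 15.0, 24.5 and 26.8 FPKM under DMSO (log2 fold change -1.17 ± 0.22, limma adjusted p = 0.00307). In LNCaP the log2 fold changes were -0.07 for SQLE, with a 95% interval of -0.34 to 0.20, and -0.14 for LSS, with an interval of -0.42 to 0.15. Summed over these 3 enzymes, libraries labelled PC3 held 50.4 to 54.3 FPKM under erastin and 110.1 to 111 FPKM under DMSO.

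Of the 8 enzymes after lanosterol, 3 fell (CYP51A1, EBP and DHCR7) and 1 rose (SC5D) in PC3, and SC5D rose in LNCaP. Of all PC3 genes tested, 32.4% fell, 34% rose and 66.4% passed in either direction. In LNCaP 13.8% of all genes tested rose. CYP51A1, lanosterol demethylase, had 2.56, 2.0 and 1.55 FPKM in erastin libraries labelled PC3 against 3.51, 7.47 and 8.27 FPKM in DMSO libraries labelled PC3 (log2 fold change -1.23 ± 0.29, limma adjusted p = 0.00834). EBP, a sterol isomerase, had 13.5, 12.6 and 12.5 FPKM in erastin libraries labelled PC3 against 19.2, 20.6 and 26.1 FPKM in DMSO libraries labelled PC3 (-0.72 ± 0.14, adjusted p = 0.00363). In LNCaP, EBP had 17.4, 15.2 and 23.1 FPKM under erastin against 25.7, 31.0 and 50.8 FPKM under DMSO. No erastin library reached a DMSO library, but EBP missed the threshold in LNCaP, with a log2 fold change of -0.88 ± 0.27 (limma adjusted p = 0.0502, and 0.00395 with the replicate block).

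The enzymes on either side of 7-dehydrocholesterol moved in opposite directions in PC3. SC5D, the desaturase that makes 7-dehydrocholesterol, had 26.9, 27.9 and 30.3 FPKM in erastin libraries labelled PC3 against 20.2, 11.7 and 9.75 FPKM in DMSO libraries labelled PC3 (log2 fold change 1.04 ± 0.25, limma adjusted p = 0.00873). DHCR7, the reductase that uses it up, had 24.3, 20.3 and 20.2 FPKM in erastin libraries labelled PC3 against 37.8, 66.9 and 67.0 FPKM in DMSO libraries labelled PC3 (-1.32 ± 0.24, adjusted p = 0.00240). DMSO replicate 1 was the DMSO library nearest to the erastin libraries for both genes. In LNCaP, SC5D had 27.1, 25.2 and 32.9 FPKM under erastin against 16.1, 13.2 and 19.3 FPKM under DMSO (0.78 ± 0.17, adjusted p = 0.0160). Every LNCaP erastin library was above every DMSO library for SC5D, and the call was lost without erastin replicate 1 (limma adjusted p = 0.0583) or DMSO replicate 2 (adjusted p = 0.0569). DHCR7 in LNCaP had 35.9, 32.2 and 28.3 FPKM under erastin against 39.4, 45.6 and 36.6 FPKM under DMSO and did not pass (-0.33 ± 0.15, adjusted p = 0.138, and 0.0444 with the replicate block).

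TM7SF2, MSMO1, NSDHL and HSD17B7, which reduce or demethylate the sterol ring, did not pass in either line in the main fit. Their log2 fold changes in PC3 lay between -0.40 for MSMO1 and 0.25 for HSD17B7. HSD17B7 passed in PC3 after protein-coding scaling (0.43, limma adjusted p = 0.0203). The 2 named pseudogenes of HSD17B7 summed to a mean of 5.18 FPKM in PC3 and 3.28 FPKM in LNCaP, near the level of the gene (5.86 FPKM under erastin and 4.78 FPKM under DMSO in PC3), so its values are uncertain. TM7SF2 was the first of the 27 genes by level in LNCaP under erastin, with 73.9, 70.9 and 83.0 FPKM against 40.4, 53.4 and 63.2 FPKM under DMSO. Those groups did not overlap, and the log2 fold change was 0.55 ± 0.19 (limma adjusted p = 0.0682, and 0.0172 with the replicate block). TM7SF2 also passed in LNCaP by voom on recovered reads (0.60, limma adjusted p = 0.0277). It passed there too after quantile normalization (0.82, limma adjusted p = 0.00119) and after protein-coding scaling (0.70, adjusted p = 0.00326). TM7SF2 overlaps VPS51 on the same strand, which fell in LNCaP (-0.82, adjusted p = 0.0147). Without DMSO replicate 1 of PC3, TM7SF2 (-0.54, limma adjusted p = 0.0132), MSMO1 (-0.20, adjusted p = 0.0307) and NSDHL (-0.44, adjusted p = 0.0108) were lower and HSD17B7 (0.32, adjusted p = 0.0326) was higher in PC3. With that library left out, 5 of the 26 genes were higher and 21 were lower, against 40.2% and 40.1% of all genes tested, and all 26 passed, against 80.4% of all genes. Summed over the 19 enzymes, libraries labelled PC3 held 262 to 285 FPKM under erastin and 427 to 464 FPKM under DMSO, and LNCaP libraries held 344 to 441 FPKM under erastin and 339 to 492 FPKM under DMSO. The sums lay apart in PC3 and overlapped in LNCaP.

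**Figure D3:**
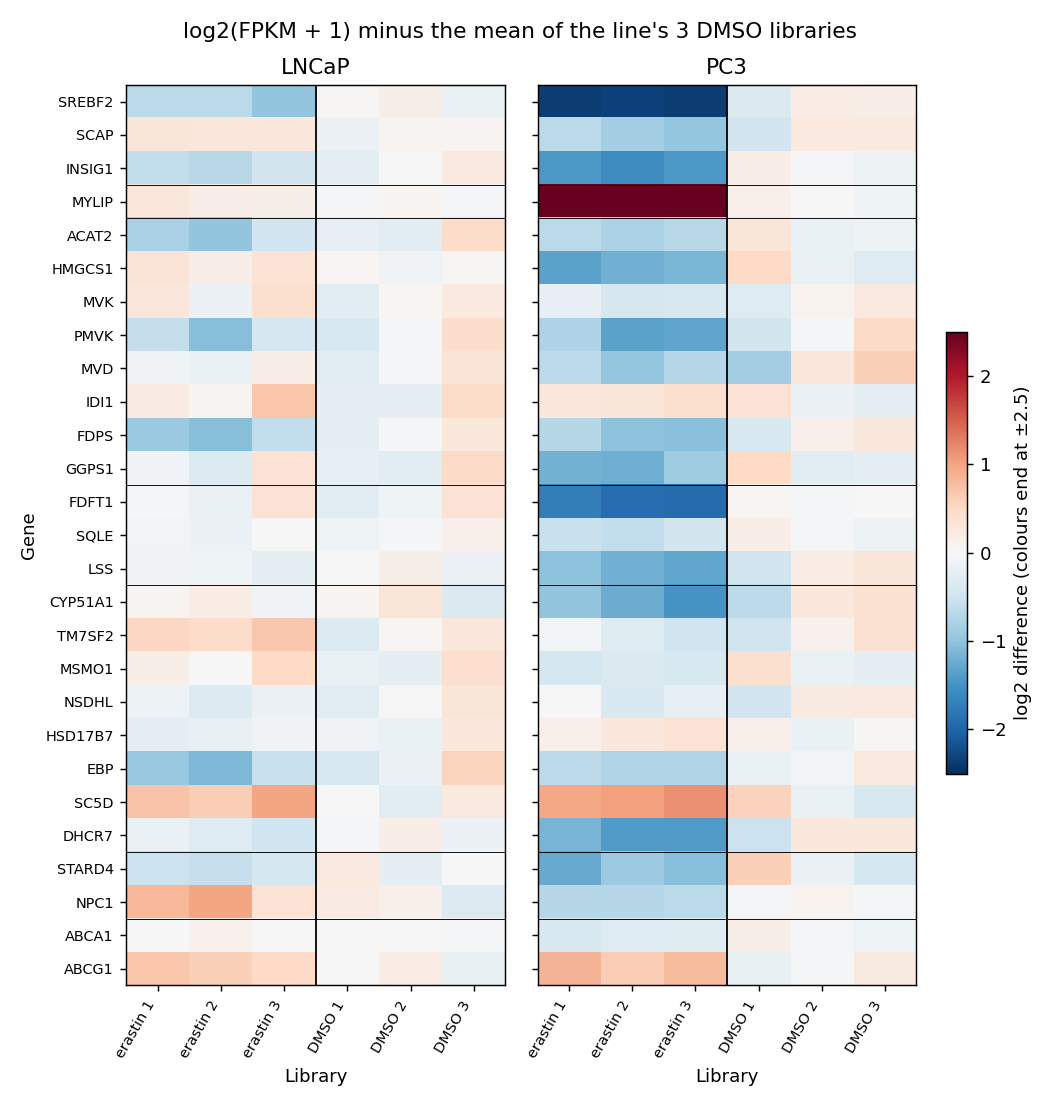
Each gene's log2(FPKM + 1) in each library, as the difference from the mean of the line's DMSO libraries. Genes are in rows by role, with the erastin libraries left of the DMSO libraries in each line. In PC3 most rows have the erastin libraries below the DMSO libraries, and DMSO replicate 1 differs from replicates 2 and 3 in both directions.

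NPC1 went different ways in the 2 lines, and STARD4 did not. NPC1, the lysosomal membrane protein that passes cholesterol out of lysosomes, was lower under erastin in PC3, with 40.5, 40.4 and 41.5 FPKM under erastin against 64.9, 71.1 and 65.7 FPKM under DMSO (log2 fold change -0.71 ± 0.10, limma adjusted p = 0.000865). In LNCaP it rose, with 24.1, 27.1 and 17.2 FPKM under erastin against 15.3, 14.4 and 10.2 FPKM under DMSO (0.73 ± 0.22, adjusted p = 0.0427). The groups did not overlap in either line, and the LNCaP call was lost in 5 of the 6 fits that left out 1 library. RMC1, which overlaps NPC1 on the opposite strand, rose in LNCaP (log2 fold change 1.03, limma adjusted p = 0.00134) and in PC3 (1.25, adjusted p = 0.000152). STARD4, a cytosolic sterol carrier and SREBP2 target, was lower under erastin in both lines. It had 8.69, 11.3 and 10.1 FPKM in erastin libraries labelled PC3 against 33.8, 19.8 and 16.0 FPKM in DMSO libraries labelled PC3 (-1.07 ± 0.27, adjusted p = 0.0102). In LNCaP it had 2.10, 2.01 and 2.34 FPKM under erastin against 4.31, 2.86 and 3.46 FPKM under DMSO (-0.52 ± 0.14, adjusted p = 0.0326). The LNCaP call of STARD4 was likewise lost in 5 of the 6 fits that left out 1 library, and after protein-coding scaling the LNCaP adjusted p was 0.151 for STARD4 and 0.0785 for NPC1 by limma.

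ABCG1, a transporter that passes cholesterol to lipoprotein particles, rose in both lines from low levels. It had 1.5, 1.14 and 1.42 FPKM in erastin libraries labelled PC3, against 0.222, 0.373 and 0.627 FPKM in DMSO libraries labelled PC3. These values rest on 127, 100 and 140 recovered reads under erastin and on 19, 33 and 54 reads under DMSO. The ratio of the PC3 means was 3.32, and the log2 fold change was 0.75 ± 0.14 (limma adjusted p = 0.00272). In LNCaP, ABCG1 had 2.91, 2.68 and 2.44 FPKM under erastin against 1.42, 1.75 and 1.14 FPKM under DMSO. All erastin libraries were above all DMSO libraries, with a log2 fold change of 0.60 ± 0.13 (limma adjusted p = 0.0155), and the call was lost without erastin replicate 1 (adjusted p = 0.0759) or erastin replicate 2 (adjusted p = 0.0582). On the recovered reads, limma-voom gave ABCG1 log2 fold changes of 1.89 in PC3 (adjusted p = 0.00149) and 0.95 in LNCaP (adjusted p = 0.00830). ABCA1, which passes cholesterol to lipid-poor apolipoproteins, stayed under 1 FPKM in all 12 libraries. It had 0.347, 0.403 and 0.430 FPKM in erastin libraries labelled PC3 against 0.954, 0.701 and 0.631 FPKM in DMSO libraries labelled PC3, from 54, 65 and 78 reads against 150, 114 and 100 reads. These groups did not overlap, and with no filter the limma adjusted p was 0.0793. In LNCaP it had 9, 23 and 8 reads under erastin against 8, 9 and 3 reads under DMSO, too few to show a difference at this depth.

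The response was then compared between the lines, as the LNCaP log2 fold change minus the PC3 log2 fold change, in 1 limma fit of the 12 libraries over the 11823 genes kept in both, and it carries the limit given above for the libraries labelled PC3. For 10 of the 26 genes the difference was above 0 and for 1 it was below 0, when 21.4% and 23.0% of all genes were past the test in those directions and 44.4% in either. FDFT1 differed by 1.90 (limma adjusted p = 0.000112), SREBF2 by 1.58 (adjusted p = 0.000232), HMGCS1 by 1.5 (adjusted p = 0.000650) and NPC1 by 1.44 (adjusted p = 0.000807). Smaller differences were those of CYP51A1 (1.29), SCAP (1.11), GGPS1 (1.08), LSS (1.04), DHCR7 (1.00) and INSIG1 (0.89), with limma adjusted p between 0.00468 and 0.0289. The call of GGPS1 was lost when LNCaP DMSO replicate 1 or 2, LNCaP erastin replicate 3, or PC3 erastin replicate 1 or 2 was left out (limma adjusted p from 0.0606 to 0.0715). MYLIP differed by -4.20 (limma adjusted p = 8.53e-09). For SREBF2 and INSIG1 both lines fell and PC3 fell further. SQLE (0.48) and TM7SF2 (0.84) missed the threshold, each with an adjusted p of 0.0502.

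Several genes gave differences near 0 between the lines. The difference was 0.06 for FDPS, with a 95% interval of -0.56 to 0.68, and -0.04 for ACAT2, with an interval of -0.68 to 0.60. It was -0.26 for SC5D, with an interval of -0.97 to 0.44. FDFT1, with the largest difference above 0 of the genes tested, had an interval of 1.33 to 2.46, above all 3. The 3 intervals are wide, so a like response in both lines was not shown. For ABCG1, at low FPKM, the difference depended on the scale: it was -0.15, -0.72 with a pseudocount of 0.1, -0.91 by voom on recovered reads and 0.22 after quantile normalization (limma adjusted p = 0.592, 0.199, 0.0813 and 0.385). By the tests within each line, 5 genes were lower in both lines (SREBF2, INSIG1, ACAT2, FDPS and STARD4), 2 were higher in both (SC5D and ABCG1), and 7 passed in neither, of the 26. Of all 11823 genes, 8.8% were lower in both lines and 6.96% were higher in both.

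**Figure D4:**
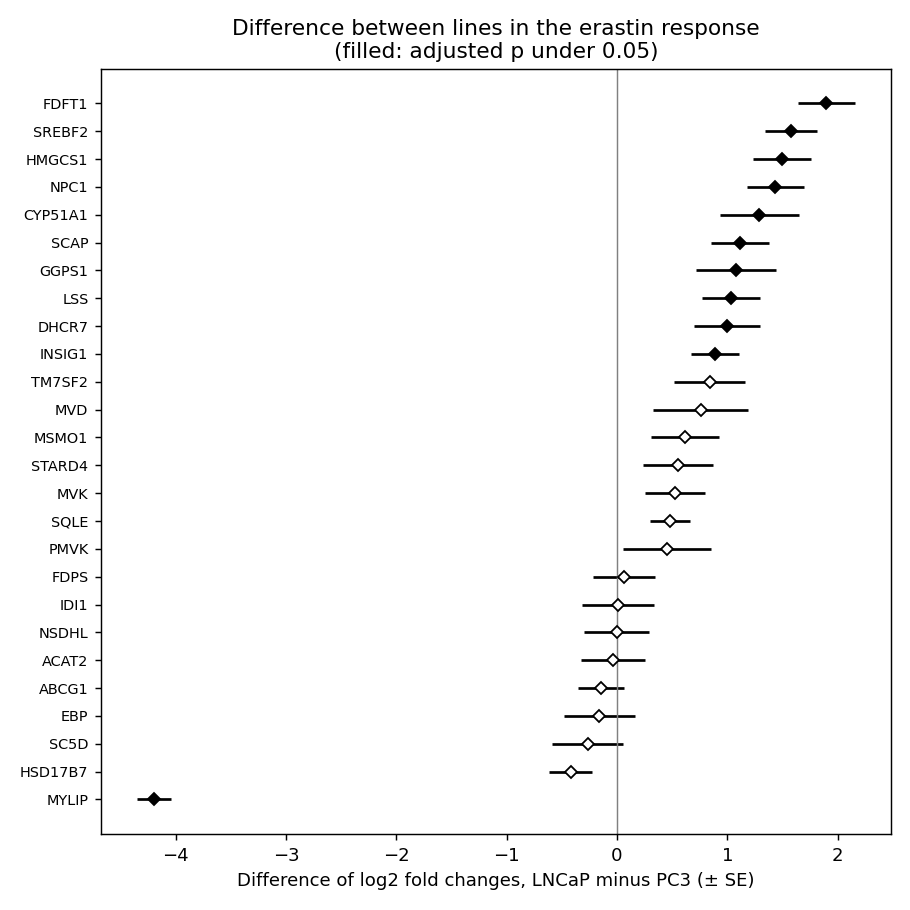
Difference in the erastin response between the lines, LNCaP minus PC3, on the log2(FPKM + 1) scale, sorted by size, with standard errors; filled points have an adjusted p under 0.05. FDFT1 at 1.90 and SREBF2 at 1.58 head the list, and MYLIP stands alone at -4.20.

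Other genes of sterol handling were read from 7 further lists, whose counts stand against 34.0% higher and 32.4% lower of all genes tested in PC3 and 13.8% higher and 17.7% lower in LNCaP. In PC3 the share that passed either way was under the 66.4% of all genes in every list but that of other synthesis genes. Of 13 further regulators of SREBP processing, 3 rose and 4 fell in PC3, and 4 rose and 3 fell in LNCaP. SREBF1, which encodes SREBP1, had 2.18 ± 0.374 FPKM in erastin libraries labelled PC3 and 44.8 ± 16.7 FPKM in DMSO libraries labelled PC3 (SD, n = 3 each; log2 fold change -3.77, limma adjusted p = 6.95e-05). In LNCaP, SREBF1 averaged 41.2 ± 1.2 FPKM under erastin and 70.8 ± 12.1 FPKM under DMSO (-0.75, adjusted p = 0.0140). SPRING1, a Golgi protein needed for SREBP activation, rose in both lines while SREBF2 fell. It averaged 45.9 ± 0.648 FPKM in erastin libraries labelled PC3 and 11.9 ± 1.21 FPKM in DMSO libraries labelled PC3 (1.86, limma adjusted p = 2.84e-05), and 16.3 ± 0.455 FPKM in erastin LNCaP libraries and 4.85 ± 0.298 FPKM in DMSO LNCaP libraries (1.56, adjusted p = 0.000241).

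Of 9 other synthesis genes tested, 6 fell and 0 rose in PC3, with a median log2 fold change of -1.05, and 2 fell and 3 rose in LNCaP, with a median of 0.12. LBR, a sterol reductase of the inner nuclear membrane, was lower under erastin in both lines, with log2 fold changes of -1.77 in PC3 (limma adjusted p = 0.000172) and -1.15 in LNCaP (adjusted p = 0.000500). ACLY, which supplies acetyl-CoA, averaged 13.6 ± 0.933 FPKM in erastin libraries labelled PC3 and 60.9 ± 3.76 FPKM in DMSO libraries labelled PC3 (-2.08, adjusted p = 1.91e-05). Over all PC3 genes the median was 0.00. Of 16 genes of the isoprenoid branches, 5 fell and 2 rose in PC3 and 2 fell and 2 rose in LNCaP. COQ2, which joins the isoprenoid tail to the ring of coenzyme Q10, was lower under erastin in both lines, with log2 fold changes of -1.86 in PC3 (limma adjusted p = 0.000127) and -1.28 in LNCaP (adjusted p = 0.00966). PDSS1 and PDSS2 encode the subunits of the enzyme that makes that tail. In LNCaP PDSS1 fell (-1.54, limma adjusted p = 0.00269) and PDSS2 rose (0.67, adjusted p = 0.0228). In PC3 PDSS1 fell as well (-0.73, limma adjusted p = 0.00379) and PDSS2 did not pass (0.31, adjusted p = 0.142).

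Of 10 genes of lipoprotein and sterol uptake tested in each line, 1 rose and 2 fell in PC3, and 2 rose and 1 fell in LNCaP. NPC2, the lysosomal partner of NPC1, averaged 87.3 ± 3.44 FPKM in erastin libraries labelled PC3 and 29.0 ± 8.81 FPKM in DMSO libraries labelled PC3 (log2 fold change 1.60, limma adjusted p = 0.000876). LRP8, a lipoprotein receptor, was lower under erastin in both lines, with log2 fold changes of -1.56 in PC3 (limma adjusted p = 6.17e-05) and -0.68 in LNCaP (adjusted p = 0.0131). VLDLR, another lipoprotein receptor, did not pass in LNCaP (0.30, limma adjusted p = 0.0755) and was below the filter in PC3. A link of these receptors to MYLIP was not tested. Of the genes of sterol transfer, 5 rose and 4 fell of 17 in PC3, and 3 rose and 0 fell of 15 in LNCaP. Of those of esterification and oxysterols, 1 rose and 1 fell in each line, of 6 tested in PC3 and 5 in LNCaP. NCEH1, a cholesteryl ester hydrolase, averaged 92.2 ± 3.33 FPKM in erastin libraries labelled PC3 and 21.8 ± 5.79 FPKM in DMSO libraries labelled PC3 (2.06, adjusted p = 0.000126). A list of LXR receptors, RXR partners, a corepressor and other LXR targets had 11 genes tested in PC3, of which 6 fell and 0 rose, with a median of -0.80, beside 0.00 over all genes. The receptors themselves, NR1H2 (-0.02, limma adjusted p = 0.958) and NR1H3 (0.10, adjusted p = 0.688), did not pass, and the 6 included RXRA, an RXR partner, and NCOR1, the corepressor. MLXIPL and SCD, lipogenic LXR targets, were among those that fell (-3.30 for MLXIPL, limma adjusted p = 7.05e-05, and -1.73 for SCD, adjusted p = 3.90e-05). In LNCaP, 2 of 12 fell and 0 rose.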

How the data were processed

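RNA-seq of 12 libraries (4 groups of 3, grouped by the labels) was analysed from the authors' tables. Per the labels' protocols, libraries were made from total RNA with a TruSeq kit. The submitters' processing notes name HISAT2 version 2.0.5 and build hg38. How reads were counted, by strand or not, and how libraries were scaled is not given in the sources used here. In 1 table per line the authors deposited FPKM values with gene lengths. FPKM times length gave whole reads for 100% of values above 0, within 0.1 reads.

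The analysis used log2(FPKM + 1), genes with at least 1 FPKM in 3 of 6 libraries of a line, and limma version 3.58.1 in R version 4.3.3 (variance trend, two-sided, threshold 0.05 after Benjamini-Hochberg adjustment over the genes kept), with lines fitted separately and an interaction fit over both. On simulated data 79.0% of 2-fold changes were recovered over 13683 LNCaP genes and 80.0% over 15371 PC3 genes. The simulation gave every gene the same small extra spread between libraries, changed few genes and held no outlying library. These shares check the fit and are not the power of the real libraries. Same-numbered LNCaP libraries of the 2 treatments deviated together (r = 0.254, 0.347 and 0.744 across genes), though no label states a shared batch and a pair with different numbers reached 0.612. The values given are from the fit without the block, with the blocked p beside each LNCaP call it changed. In PC3 the r values of same-numbered libraries were -0.380, -0.0135 and -0.311, so these did not deviate together. No label states whether PC3 libraries are paired, and 3 libraries a group cannot settle it.

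All 27 genes are described. In the 7 further lists, the genes named are the 3 with the largest absolute log2 fold change among those past the test with groups that do not overlap, for each list and line, from which a part is given. Outside that rule, NR1H2, NR1H3, NCOR1, VLDLR and the PC3 values of PDSS1 and PDSS2 are also given. The genes and lists were chosen with earlier results of these data known. Some genes of the pathway are not reported here. Alternatives were other pseudocounts, filters and scalings, limma-voom on recovered reads, the replicate block and each library left out. Plots were drawn with matplotlib version 3.10.9.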

Additional observations from a re-analysis of the deposited data

Results flagged for a closer look

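Differences in the erastin response between the lines, by limma's interaction test, are given as LNCaP minus PC3 on the log2(FPKM + 1) scale. The difference passed the threshold for 11 of the 26 genes tested in both lines, and for 44.4% of all genes, about the same share. Among the regulators it was 1.58 for SREBF2, 1.11 for SCAP and 0.888 for INSIG1. For MYLIP it was -4.20. Among the synthesis enzymes it was 1.5 for HMGCS1, 1.08 for GGPS1, 1.90 for FDFT1, 1.04 for LSS, 1.29 for CYP51A1 and 0.997 for DHCR7. NPC1, at 1.44, rose in LNCaP and fell in PC3. With each of the 12 libraries left out in turn, every one of these calls was kept except that of GGPS1, whose limma adjusted p lay between 0.0606 and 0.0715 in 5 of those fits.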

How the results depend on the processing

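The replicate block changed no LNCaP call other than the 6 gained. With no library left out, 3 genes were higher and 5 lower in LNCaP. The number higher was 1 with no filter, 6 after quantile normalization, 5 after protein-coding scaling, 6 with the replicate block and 5 without replicate 3 of both LNCaP groups, and the number lower was 2 with no filter and 8 with the replicate block. With 1 library left out, 0 to 3 LNCaP genes were higher and 1 to 5 lower, fewest without erastin replicate 1 (0 and 1). In PC3 the number higher was 5 after protein-coding scaling and 3 to 5 with 1 library left out, the number lower was 15 to 21, and the replicate block left 3 and 16. For the difference between lines, the number below 0 was 2 after protein-coding scaling and 1 to 2 with 1 library left out. The number above 0, 10 in the main fit, was 8 when a mean of at least 5 FPKM was required. It was 12 by voom and after median-ratio scaling, 13 after quantile normalization, and 9 to 14 with 1 library left out.

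No gene that passed its test changed direction under any alternative. Among genes that did not pass, MVD in LNCaP had a log2 fold change of 0.038 after quantile normalization, 0.11 after protein-coding scaling, 0.011 by voom on recovered reads and 0.044 without replicate 3 of both groups. GGPS1 in LNCaP had 0.051, 0.12, 0.015 and 0.026 under the same settings. SQLE in LNCaP had 0.021 and 0.074 under the 2 scalings, LSS 0.0032 after protein-coding scaling, and CYP51A1 -0.049 without replicate 3 of both groups. NSDHL in PC3 had 0.0065 after protein-coding scaling. With 1 library left out, LNCaP values ran from -0.16 to 0.14 for MVD, -0.21 to 0.21 for GGPS1, -0.11 to 0.23 for FDFT1 and -0.12 to 0.20 for CYP51A1. For the difference between lines, ACAT2 had 0.054 without replicate 3 of both LNCaP groups, IDI1 -0.059 and FDPS -0.0058 after protein-coding scaling, ABCG1 0.22 after quantile normalization, and NSDHL 0.012 after quantile normalization, 0.0076 after median-ratio scaling and 0.12 without replicate 3 of both LNCaP groups. With 1 library left out, those differences ran from -0.18 to 0.20 for ACAT2, -0.18 to 0.24 for IDI1, -0.065 to 0.26 for FDPS, -0.14 to 0.23 for NSDHL and -0.36 to 0.12 for EBP. Over all genes, 1894 were higher and 2418 lower in LNCaP, against 3236 and 3657 with the replicate block and 2269 and 1932 after protein-coding scaling, which shifted the all-gene median to 0.10 in LNCaP and 0.20 in PC3. The causes were not tested.

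Depth limits ABCA1, with 3 to 23 reads per LNCaP library, and 3 libraries a group limit all values.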

Other observations

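Within the DMSO group of PC3, replicate 1 lay above both other libraries for 13 of the 27 genes, among them HMGCS1, GGPS1, SC5D and STARD4, and below both for the other 14, among them SREBF2, LSS, CYP51A1 and DHCR7. In LNCaP, replicate 3 was the highest library of both treatments for 15 genes, among them FDPS, FDFT1, EBP and SC5D, and the lowest of both for 8, among them SREBF2, LSS, NPC1 and ABCG1.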
